A study of Mus musculus with 6 samples.

Results

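Flt3, Kit and the receptors for colony-stimulating factors are the cytokine receptor genes described here in Ly6D-negative common lymphoid progenitors (CLPs), which are bone marrow cells at an early step towards lymphocytes. They are the 6 listed genes Flt3, Kit, Csf1r, Csf2ra, Csf2rb and Csf3r, out of 22180 genes that a probe set with 1 gene symbol named. Each had 1 such probe set, and all 6 were among the 13308 genes bright enough to be tested. Mutant mice were OcnCre+;iDTR+/-, carrying Cre recombinase under the osteocalcin promoter and an inducible diphtheria toxin receptor, which makes osteocalcin-expressing bone cells sensitive to the toxin. Control mice were OcnCre-;iDTR+/-, with the same receptor allele and no Cre. Both groups received diphtheria toxin daily for 4 weeks, and progenitors were sorted the next day from mice of 6 to 8 weeks as low for lineage markers, positive for Kit, Sca and CD127, and negative for Thy1.2 and Ly6D. Presence of Cre and loss of osteocalcin-expressing cells cannot be told apart in this design. Affymetrix arrays measured 3 mutant and 3 control samples, 1 array each, and every value below is a log2 intensity or a difference of log2 intensities. Whether a sample was 1 mouse or several pooled is not stated in the labels, and a p-value here covers the spread between samples alone.

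Flt3 and Kit are receptor tyrosine kinases of the same structural family as Csf1r, the receptor for macrophage colony-stimulating factor and interleukin-34. Flt3 and its ligand sustain lymphoid and dendritic progenitors, and Kit binds stem cell factor, which bone marrow stromal cells supply. Csf2ra and Csf2rb encode the ligand-binding and the common beta subunit of the receptor for granulocyte-macrophage colony-stimulating factor, and Csf3r encodes the receptor for granulocyte colony-stimulating factor. These cytokine receptors have no kinase of their own and signal through Janus kinases and STAT proteins. In early progenitors Flt3 goes with lymphoid potential, and Csf1r, Csf2ra and Csf3r with myeloid potential.

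The promoters of 4 of the 6 genes are shown here. Csf2ra and Csf3r are textbook targets of the myeloid factor PU.1, whose part in the values of these arrays was not tested. Each is the 250 bases before the first listed transcript start in RefSeq (GRCm38.p6), 5′ to 3′ on the gene's strand, with every match to the PU.1 core GAGGAA in capitals. The sequences lie at chr19:61228419-61228668 (minus strand) for Csf2ra, chr4:126024409-126024658 (plus) for Csf3r, chr5:75574737-75574986 (plus) for Kit and chr5:147400490-147400739 (minus) for Flt3.
Csf2ra: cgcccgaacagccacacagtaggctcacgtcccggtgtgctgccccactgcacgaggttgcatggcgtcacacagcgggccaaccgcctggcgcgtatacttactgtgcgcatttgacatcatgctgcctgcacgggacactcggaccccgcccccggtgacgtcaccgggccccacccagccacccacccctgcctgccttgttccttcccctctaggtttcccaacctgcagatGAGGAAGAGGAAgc
Csf3r: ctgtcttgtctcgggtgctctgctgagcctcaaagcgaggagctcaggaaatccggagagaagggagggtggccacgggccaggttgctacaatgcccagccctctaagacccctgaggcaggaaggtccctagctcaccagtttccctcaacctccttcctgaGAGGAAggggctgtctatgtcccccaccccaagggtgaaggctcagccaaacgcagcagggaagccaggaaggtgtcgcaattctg
Kit: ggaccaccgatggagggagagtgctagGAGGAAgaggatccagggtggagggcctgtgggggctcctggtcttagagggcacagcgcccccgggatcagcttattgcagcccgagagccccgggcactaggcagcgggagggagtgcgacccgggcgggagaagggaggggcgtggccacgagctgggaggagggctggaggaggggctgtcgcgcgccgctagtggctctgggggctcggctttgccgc
Flt3: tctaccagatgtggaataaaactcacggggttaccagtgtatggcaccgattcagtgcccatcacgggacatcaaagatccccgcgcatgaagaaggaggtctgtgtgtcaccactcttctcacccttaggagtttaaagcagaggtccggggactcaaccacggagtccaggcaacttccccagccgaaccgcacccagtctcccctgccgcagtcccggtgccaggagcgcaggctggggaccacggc
GAGGAA stood 2 times side by side in Csf2ra, from base −14 to base −3 before the start, 1 time in Csf3r from base −86 and 1 time in Kit from base −223, all on the gene's strand. Flt3 had no match on either strand in this window. Of 27025 promoters of this length, 23.1% held GAGGAA or its reverse complement TTCCTC. The RUNX core TGTGGT, or ACCACA on the other strand, was in 14.2% of promoters and in none of these 4. A match is a description of the sequence, and no binding was measured here.

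None of the 6 receptor genes differed between mutant and control progenitors at an adjusted p of 0.05 in limma, nor did any other gene (0% of 13308). At an unadjusted p under 0.05, 1 of the 6 was lower in mutants, Csf1r, where 1068 tested genes (8.03%) passed in either direction. Csf1r was also the only one of the 6 whose mutant and control arrays did not overlap, against 15.4% of all tested genes, 9.99% with every mutant array below every control array. The mean was lower in mutants for 5 of the 6 receptors and for 57.5% of all tested genes, whose median difference was −0.043. A count of 1 in 6 is close to these shares, and nothing is read from it. Mutant replicate 2 was the array least like the rest, correlating at 0.935 to 0.954 with the other arrays across probe sets. The most intense 10% of tested genes lay below the control mean by a median difference of −0.42 on that array and −0.18 on mutant replicate 3, while mutant replicate 1 was at −0.00018. The Y-linked gene Eif2s3y was at 4.77 in mutant replicate 3 and 4.88 in control replicate 1, and at 7.31 to 7.85 on the other 4 arrays. Arrays low and high for Eif2s3y thus fell in both groups. The X-linked gene Xist was at 10.7 in mutant replicate 3 and 11.0 in control replicate 1. It was at 8.03 and 5.57 in mutant replicates 1 and 2, and at 8.07 and 6.57 in control replicates 2 and 3. All 9 CLP markers examined, among them Il7r, Dntt, Rag2 and Ebf1, were bright enough to be tested. So were 5 B cell markers, with a mean level of 9.60 to 9.93 in mutants and 9.79 to 10.3 in controls. Being bright enough to be tested thus does not tell these cell types apart.

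**Figure D1:**
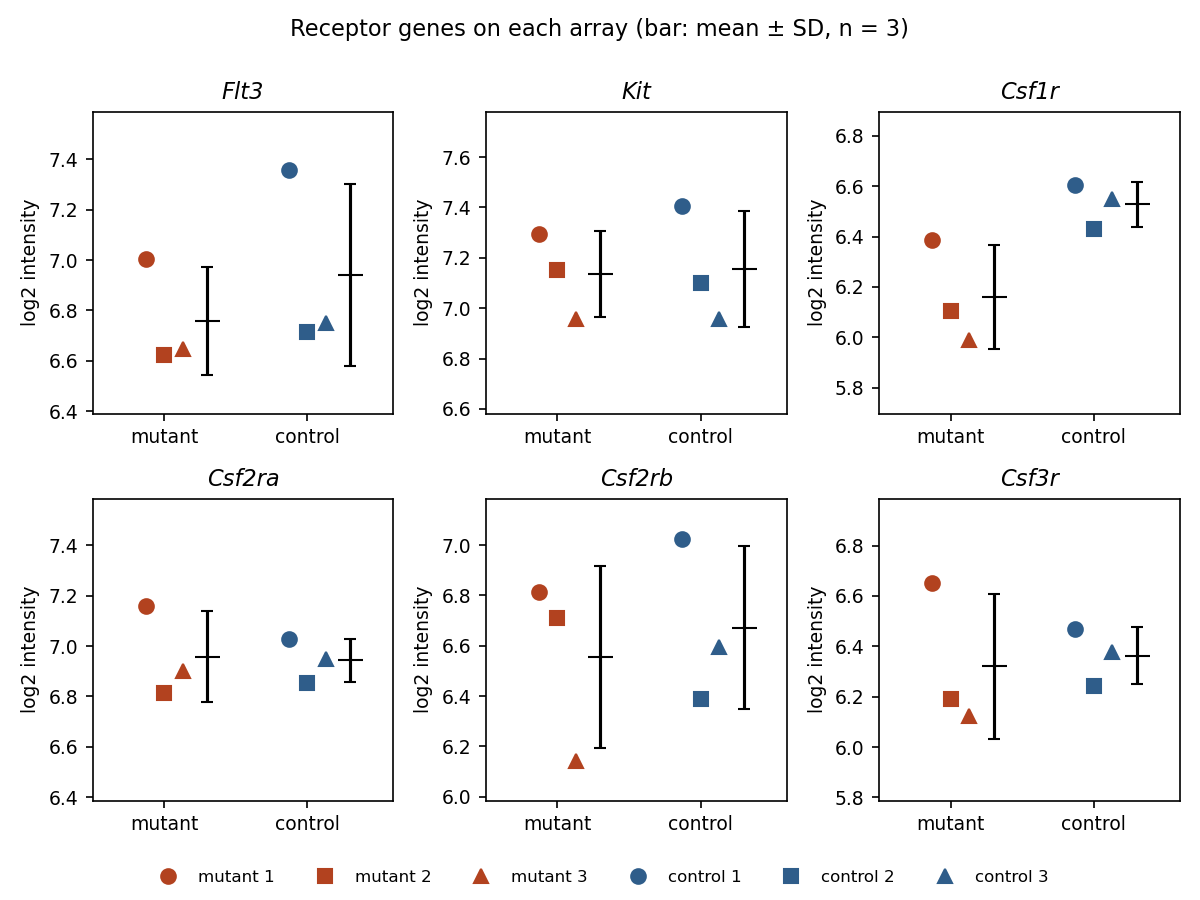
Log2 intensity (vertical axis, the same span in each panel) of each receptor gene on the 3 mutant arrays (left) and the 3 control arrays (right), with the mean and SD as a black bar; circles, squares and triangles are replicates 1, 2 and 3. Csf1r is the gene whose groups do not overlap, and the circle is the highest point of its group in every panel.

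Csf1r, which marks and sustains monocytes and macrophages and is switched on early in myeloid progenitors, was at 6.39, 6.10 and 5.99 in mutant replicates 1, 2 and 3, against 6.60, 6.43 and 6.55 in control replicates 1, 2 and 3. All mutant arrays lay below all control arrays, and the gap between the highest mutant and the lowest control array was 0.041. The means were 6.16 ± 0.21 in mutants and 6.53 ± 0.090 in controls (SD, n = 3 each), a difference of −0.37 ± 0.14 (SE), or 0.775 of the control intensity with a 95% interval of 0.621 to 0.967. It had an unadjusted p of 0.0291 and an adjusted p of 0.594 in limma, and 581 of the tested genes had a lower p. The exact two-sided permutation test of the arrays gave p = 0.1, the smallest that 3 against 3 allows. A difference at least as large, in either direction, was seen in 11.6% of the tested genes. Leaving out mutant replicate 3 gave −0.28, leaving out mutant replicate 1 gave −0.48, and the difference stayed negative without any 1 array.

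Markers of myeloid cells did not all lie with Csf1r. The macrophage markers had 4 of 8 members bright enough to be tested (Mertk, C1qc, Mrc1 and Vcam1 were not), and their mean level was 6.43 to 6.53 in mutants and 6.42 to 6.58 in controls. Cd68, a lysosomal protein gene of macrophages, differed by −0.15 ± 0.22 (SE), and the complement gene C1qb by 0.084 ± 0.14. Of the 18 granulocyte and monocyte markers, all tested, 10 had a higher and 8 a lower mean in mutants (median difference 0.061, or −0.12 when mutant replicate 1 and 0.25 when mutant replicate 2 was left out), and the mean level of the list was 8.36 to 9.32 in mutants and 8.42 to 9.23 in controls. That list mixes neutrophil granule genes with genes of monocytes, and not all of its members mark cells that express Csf1r. Its largest differences on the higher side were 0.87 ± 0.53 (SE) for the granule gene Elane and 0.71 ± 0.63 for Ms4a3. On the lower side they were −0.55 ± 0.41 for Fcer1g and −0.53 ± 0.25 for Ly86. The chemokine receptor gene Ccr2 was at 7.25, 6.74 and 6.89 in mutants and 7.52, 7.38 and 7.47 in controls (adjusted p = 0.594 in limma), without overlap. Cx3cr1, the fractalkine receptor gene of monocytes, was on the other side, at 7.21, 7.46 and 7.43 in mutants and 7.15, 6.99 and 7.03 in controls (adjusted p = 0.594). These were the 2 of 18 markers without overlap, where the share of all tested genes was 15.4%, and nothing is read from it. Dendritic cell markers had 2 of 5 tested members higher and 3 lower (median −0.15, or 0.11 when mutant replicate 2 was left out), with Xcr1 at 0.29 ± 0.15 and the lectin gene Cd209a at −0.30 ± 0.21, and the mean level of the list was 6.83 to 6.90 in mutants and 6.89 to 6.97 in controls. Itgax, Ccr9 and Zbtb46 were too dim to be tested. The part of such cells in the Csf1r difference was not tested, and fewer Csf1r-expressing cells cannot be told apart from less Csf1r RNA per cell in sorted bulk samples.

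The kinase receptor Flt3, whose loss lowers the number of common lymphoid progenitors in mice, was at 7.01, 6.62 and 6.65 in mutants, against 7.36, 6.71 and 6.75 in controls. The groups overlapped, and replicate 1 stood above the other replicates in each of them. The means were 6.76 ± 0.21 in mutants and 6.94 ± 0.36 in controls (SD, n = 3 each), a difference of −0.18 ± 0.20 (SE; 95% interval −0.65 to 0.28; adjusted p = 0.733 in limma). Without control replicate 1 the difference was 0.027.

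Kit, the stem cell factor receptor and one of the markers on which the cells were sorted, was at 7.30, 7.15 and 6.96 in mutants and 7.41, 7.10 and 6.96 in controls. The 2 groups covered nearly the same range. The difference was −0.020 ± 0.16 (SE; 95% interval −0.38 to 0.34; adjusted p = 0.964 in limma), so that an intensity in mutants from 0.768 to 1.27 of that in controls lay within the interval. It was 0.11 without control replicate 1 and 0.070 without mutant replicate 3.

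For the granulocyte-macrophage receptor, the alpha subunit gene Csf2ra was at 7.16, 6.81 and 6.90 in mutants and 7.03, 6.86 and 6.95 in controls. It varied least of the 6 receptors, by 0.35 from its lowest to its highest array, and the difference was 0.014 ± 0.13 (SE; 95% interval −0.29 to 0.32; adjusted p = 0.97 in limma). The sign was not stable, turning to −0.086 when mutant replicate 1 was left out and to −0.030 when control replicate 2 was.

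The common beta subunit gene Csf2rb, which the receptors for interleukin-3 and interleukin-5 also use, was at 6.81, 6.71 and 6.14 in mutants and 7.03, 6.39 and 6.60 in controls. It varied most, by 0.88 over the arrays, with its lowest value in mutant replicate 3 and its highest in control replicate 1. The difference was −0.12 ± 0.22 (SE; 95% interval −0.63 to 0.40; adjusted p = 0.847 in limma), and leaving out mutant replicate 3 or control replicate 1 turned it to 0.090 or 0.062. Csf2rb2, a close copy of Csf2rb that in mice serves interleukin-3 alone, was at 5.86, 4.77 and 5.29 in mutants and 6.26, 4.93 and 5.19 in controls (difference −0.15 ± 0.38, SE). Because the 2 genes are so similar, signal of one on the probe set of the other was not tested, and both values are uncertain to that extent.

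Csf3r, the receptor gene by which granulocyte colony-stimulating factor drives neutrophil formation, was at 6.65, 6.19 and 6.12 in mutants and 6.47, 6.24 and 6.38 in controls. Mutant replicate 1 was the highest of all arrays and the other mutant arrays were the lowest. The difference was −0.042 ± 0.16 (SE; 95% interval −0.42 to 0.34; adjusted p = 0.928 in limma). Leaving out mutant replicate 3, mutant replicate 2 or control replicate 1 turned it to 0.057, 0.024 or 0.011, and leaving out mutant replicate 1 gave −0.21.

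**Figure D2:**
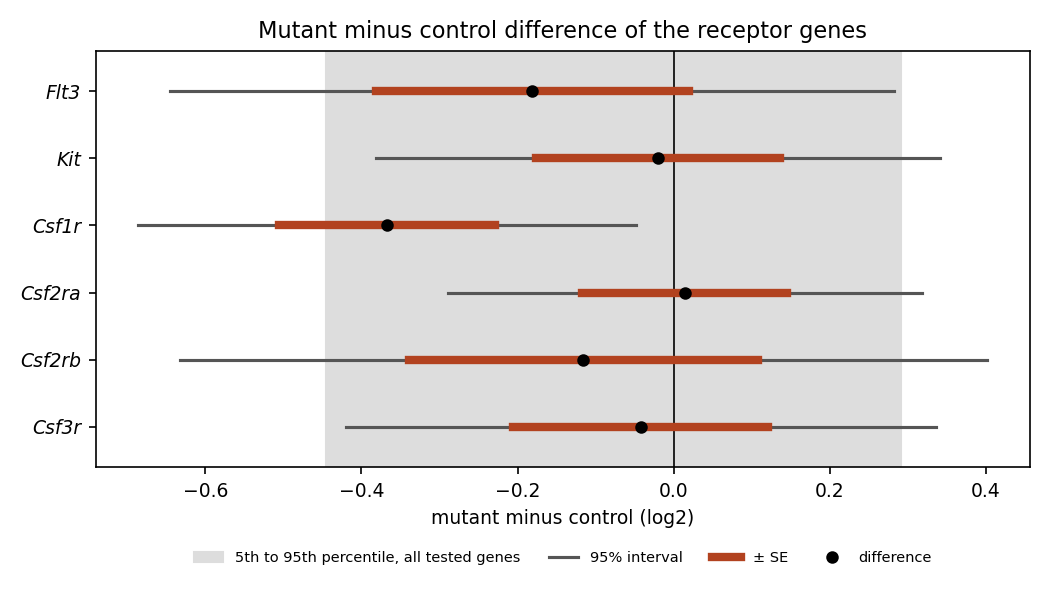
Mutant minus control difference of each receptor gene on the log2 scale (horizontal axis), with limma's standard error (thick red bar) and 95% interval (thin line); the grey band runs from the 5th to the 95th percentile of all tested genes, −0.45 to 0.29. All 6 differences lie inside the band, and the interval of Csf1r alone leaves out 0.

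The receptors shared their highest array within each group. Replicate 1 was the highest mutant array and also the highest control array for 6 of 6 receptor genes, a pattern held by 16% of all tested genes. This pattern was picked out after the values had been seen, so it is a description with no test. The lowest mutant array was not shared, being replicate 2 for Flt3 and Csf2ra and replicate 3 for the other receptors. Mutant replicate 1 exceeded the mean of the other mutant arrays by 0.24 (Kit) to 0.50 (Csf3r), and control replicate 1 exceeded the mean of the other controls by 0.11 (Csf1r) to 0.63 (Flt3). For Flt3, Kit, Csf2ra, Csf2rb and Csf3r these steps within a group were larger than the difference between the groups. Because the replicate numbers were not shown to pair the arrays, mutant and control replicate 1 need have nothing in common beyond their number.

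The same arrays had the highest scores for granulocyte and monocyte and for mast cell and basophil markers, but not for macrophage or dendritic cell markers. A list was scored on each array by subtracting the control mean from every tested member and taking the median of these log2 differences. For granulocyte and monocyte markers it was 0.39, −0.27 and 0.048 in mutant replicates 1, 2 and 3, and 0.31, −0.15 and −0.13 in control replicates 1, 2 and 3. For mast cell and basophil markers, of which 5 of 7 were tested (Cma1 and Tpsb2 were too dim), it was 0.66, −0.36 and 0.24 in mutants and 1.00, −1.05 and −0.091 in controls. The mean level of that list ran from 6.76 to 7.80 in mutants and from 6.35 to 8.17 in controls, with the protease genes Cpa3 (difference 0.43 ± 0.59, SE) and Mcpt8 (0.18 ± 0.48) far more variable between arrays than between groups. Macrophage markers scored 0.033, 0.12 and −0.082 in mutants and 0.13, −0.034 and −0.082 in controls, so that replicate 1 was the highest control array and not the highest mutant array. Dendritic cell markers scored −0.00063, 0.0080 and 0.024 in mutants and −0.030, 0.038 and 0.038 in controls, with replicate 1 the lowest of each group. Stem and multipotent progenitor markers scored 0.28, −0.088 and 0.076 in mutants and 0.20, −0.13 and −0.069 in controls. The mean level of its 5 tested members was 5.72 to 6.11 in mutants and 5.59 to 6.09 in controls, with Hoxa9 at 0.16 ± 0.13 and Procr at 0.066 ± 0.12. The part of other cells in the high receptor values of these arrays was not tested.

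**Figure D3:**
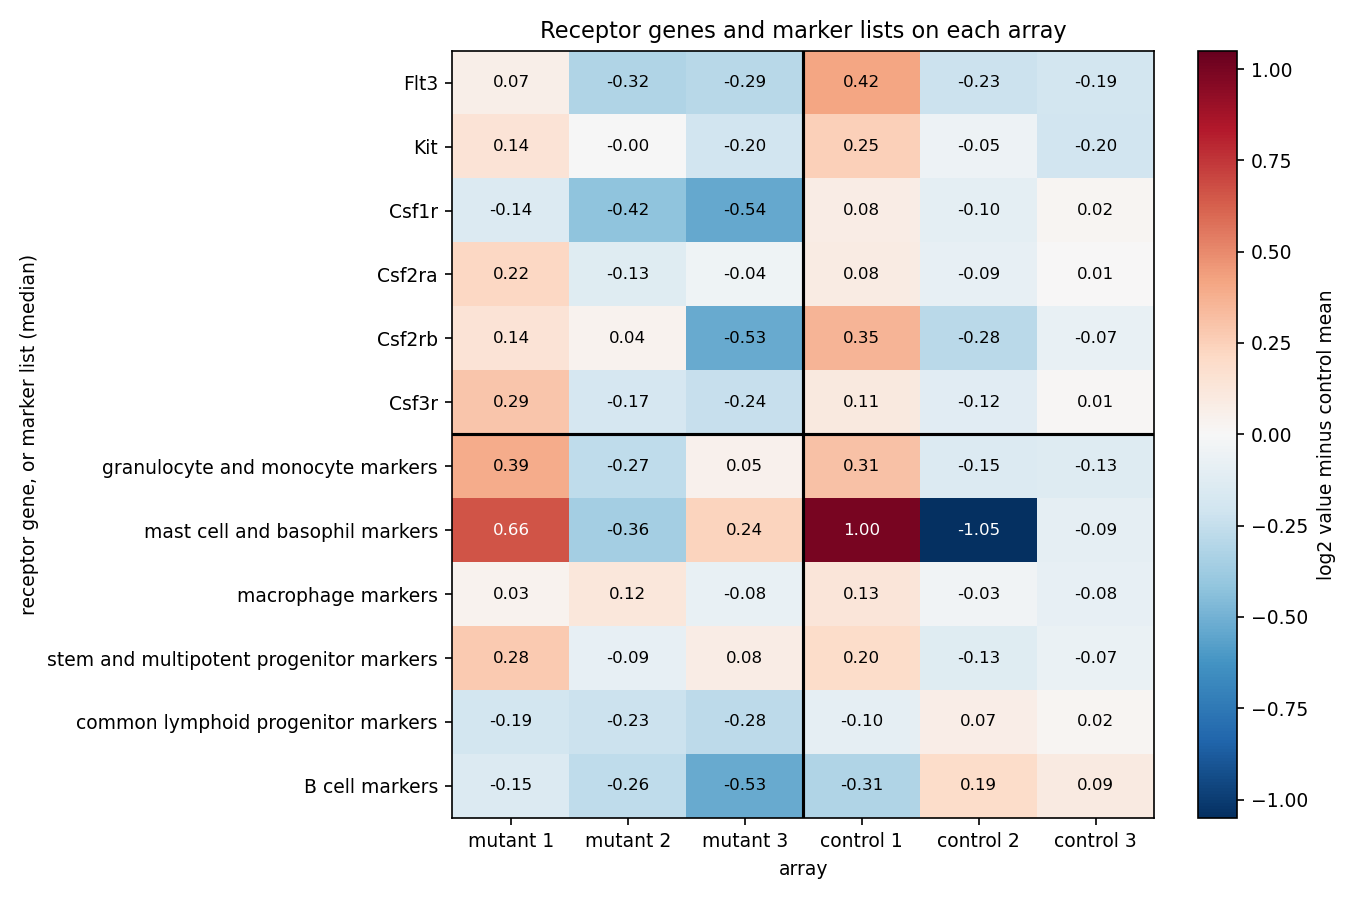
Each receptor gene (upper 6 lines) and the score of 6 marker lists (lower lines) on the 3 mutant arrays (left) and the 3 control arrays (right), as log2 value minus the control mean, with red above and blue below. Replicate 1 is the highest of its group for all 6 receptors and for the granulocyte and monocyte, the mast cell and basophil, and the stem and multipotent progenitor markers.

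Lymphoid markers shared this pattern in mutants alone. For CLP and B cell markers, replicate 1 was the highest mutant array but the lowest control array. CLP markers, 9 of 9 tested, scored −0.19, −0.23 and −0.28 in mutants and −0.096, 0.068 and 0.018 in controls, with 7 of 9 lower in mutants and a median difference of −0.21, which was −0.022 after cyclic loess removed trends with brightness between arrays. The mean level of the list was 8.71 to 8.80 in mutants and 8.86 to 9.07 in controls. Mutant and control arrays did not overlap for 6 of the 9 CLP markers, against 15.4% of all tested genes. The same held for 0 of the 5 tested B cell markers. The part of brightness trends between arrays in the count of 6 was not tested. In it the lymphoid transcription factor gene Ikzf1 was at 8.67, 8.48 and 8.60 in mutants and 8.86, 9.14 and 9.10 in controls, and the chromatin organiser gene Satb1 at 6.84, 6.33 and 6.26 in mutants and 6.92, 7.02 and 6.94 in controls; both had adjusted p = 0.594 in limma. B cell markers scored −0.15, −0.26 and −0.53 in mutants and −0.31, 0.19 and 0.091 in controls. Of 5 tested, 5 were lower (median −0.27, or −0.093 after cyclic loess), with the surrogate light chain gene Igll1 at −0.42 ± 0.17 (SE; adjusted p = 0.594 in limma). A lower mean in mutants was seen in 57.5% of all tested genes. The most intense 10% of tested genes were low on mutant replicates 2 and 3 (−0.42 and −0.18 against the control mean). Erythroid and megakaryocyte markers had 5 of 6 members higher in mutants (median 0.20, or 0.025 when control replicate 2 was left out), with the transferrin receptor gene Tfrc at −0.51 ± 0.24 and the integrin gene Itga2b at 0.17 ± 0.14. Bone and stromal cell markers had 3 of 6 higher (median 0.021, or −0.037 when mutant replicate 2 was left out), with the alkaline phosphatase gene Alpl at 0.14 ± 0.15 and the osteocalcin gene Bglap at 0.12 ± 0.14.

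Measured within each array, Csf1r stood lower against the other 5 receptors on every mutant array. Relative to the controls, Csf1r minus the mean of Flt3, Kit, Csf2ra, Csf2rb and Csf3r was −0.31, −0.31 and −0.28 in mutants, against −0.17, 0.055 and 0.11 in controls. The 3 mutant values lay close together, and the groups did not overlap. This contrast was formed after the values had been seen, so it is a description with no test. Among the receptors, Csf2ra and Csf3r had the most similar profiles, with a root mean square difference of 0.085 over the 6 arrays after each gene's own mean was taken off. Csf2rb and Csf2ra were the furthest apart by this measure, at 0.25. It depends on how much a gene varies as well as on the shape of its profile. These 2 genes varied most and least of the 6 receptors, with an SD over the arrays of 0.31 and 0.13.

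Over all tested genes, the profiles nearest to each receptor belonged to genes of many kinds. Nearest to Flt3 were the phosphoinositide 3-kinase gene Pik3cb (root mean square difference 0.026 over 6 arrays) and Dph6 (0.058), and nearest to Kit were the protease inhibitor gene Serpinb9 (0.039) and the fatty acid elongase gene Elovl1 (0.041). Csf1r lay nearest to the ubiquitin ligase gene Rnf5 (0.040) and the homeobox gene Cux1 (0.046). Rnf5 was at 7.19, 6.91 and 6.87 in mutants and 7.39, 7.23 and 7.30 in controls, in the same order of arrays as Csf1r. For Csf2ra the nearest were Manf (0.022) and Opa1 (0.030), for Csf2rb Snord89 (0.072) and Cnn2 (0.075), and for Csf3r M6pr (0.038) and Ppa1 (0.048). Likeness over 6 arrays is a description and says nothing of shared function or control.

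Of the ligands, only Csf1 was bright enough to be tested. Csf1, a ligand of the Csf1r receptor, was at 6.30, 5.99 and 6.38 in mutants and 6.14, 5.54 and 5.98 in controls. The groups overlapped through control replicate 1, and the difference was 0.34 ± 0.18 (SE; adjusted p = 0.596 in limma), opposite in sign to that of its receptor gene. Leaving out control replicate 2 brought it to 0.17. Its other ligand, Il34, was dim, at 4.26, 4.22 and 4.45 in mutants and 4.05, 4.21 and 3.98 in controls. Kitl, the stem cell factor gene, stood at 3.80, 3.80 and 3.78 in mutants and 4.06, 3.61 and 3.69 in controls, also below the level for testing of 4.84. Csf2, Csf3, Il3 and Il5 were likewise not tested, with differences of −0.016, −0.13, 0.18 and 0.053. Flt3l shares its probe set with the ribosomal protein gene Rpl13a and was not analysed here.

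Among receptors that share ligands, subunits or pathways with these, 3 of 8 tested genes had a higher and 5 a lower mean in mutants (median −0.16, ranging from −0.34 when mutant replicate 1 was left out to 0.049 when mutant replicate 2 was), and none passed. Il3ra, the interleukin-3 receptor alpha gene that pairs with Csf2rb, was at 6.96, 7.02 and 6.70 in mutants and 6.91, 7.04 and 6.69 in controls. It was nearly the same in both groups (difference 0.011 ± 0.14, SE). Il5ra lay below the level for testing, at 4.54, 4.35 and 4.71 in mutants and 4.47, 4.33 and 4.45 in controls. Il7r, the interleukin-7 receptor gene and a sort marker as CD127, was at 9.80, 9.72 and 9.78 in mutants and 9.81, 10.35 and 10.16 in controls. Its groups did not overlap, though mutant and control replicate 1 all but met (difference −0.34 ± 0.15, SE; adjusted p = 0.594 in limma). The erythropoietin receptor gene Epor was at 6.17, 6.49 and 6.11 in mutants and 5.93, 5.82 and 5.92 in controls, higher on every mutant array (0.37 ± 0.13, SE, adjusted p = 0.594 in limma). Il7r and Epor were the 2 of 8 tested genes without overlap, where the share of all tested genes was 15.4%, and nothing is read from it.

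Genes that carry the receptors' signal had mostly lower means in mutants without passing. Of 21 tested proximal signalling genes, 4 were higher and 17 lower, where 57.5% of all tested genes were lower. The median difference was −0.043 over all tested genes and −0.13 in the list. That median was −0.027 after cyclic loess, and it ran from −0.21 when mutant replicate 1 was left out to −0.059 when mutant replicate 3 was. The lipid kinase gene Pik3cg was at 7.39, 6.98 and 7.28 in mutants and 7.45, 7.70 and 7.40 in controls (−0.30 ± 0.15, SE), and the exchange factor gene Vav1 was at 7.84, 7.81 and 7.73 in mutants and 7.95, 8.10 and 7.95 in controls (−0.21 ± 0.11); their adjusted p were 0.594 and 0.596 in limma. Neither gene's groups overlapped. In the list this held for 3 of 21 tested genes, close to the 15.4% of all tested genes, and nothing is read from it.

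Inhibitors of receptor signalling went both ways, with 10 of 20 tested genes higher and 10 lower (median 0.014). The sign of that median was not stable, at −0.11 when mutant replicate 1 was left out, −0.067 when the dimmest 60% of genes were left out and 0.079 with no filter on dim genes. Cish, a STAT5-induced inhibitor, was at 7.48, 6.69 and 7.06 in mutants and 6.46, 6.37 and 6.14 in controls. The phosphatase gene Ptpn6, which restrains Kit and the Csf receptors, was at 8.34, 8.10 and 7.81 in mutants and 8.50, 8.75 and 8.61 in controls. Ptprj, a receptor-type phosphatase gene, was at 7.15, 6.70 and 6.84 in mutants and 7.25, 7.38 and 7.46 in controls. In none of these 3 genes did the groups overlap, Cish being higher and the 2 phosphatases lower in mutants, and each had adjusted p = 0.594 in limma. They were named for their low unadjusted p. A count of 3 in 20 tested inhibitors without overlap is close to the 15.4% of all tested genes, and nothing is read from it.

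Myeloid transcription factor genes had 8 of 11 tested members higher and 3 lower in mutants (median 0.12), with none passing and none without overlap. Leaving out control replicate 2 brought the median to 0.00097, leaving out mutant replicate 1 to 0.018 and leaving out control replicate 1 to 0.29. Klf4, a monocyte factor gene, differed by 0.37 ± 0.26 (SE) and the immediate early gene Egr1 by 0.88 ± 0.62, with adjusted p = 0.62 and 0.622 in limma. The score of the list was 0.32, 0.046 and 0.076 in mutants and 0.38, −0.24 and −0.079 in controls, so replicate 1 was again the highest of each group.

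**Figure D4:**
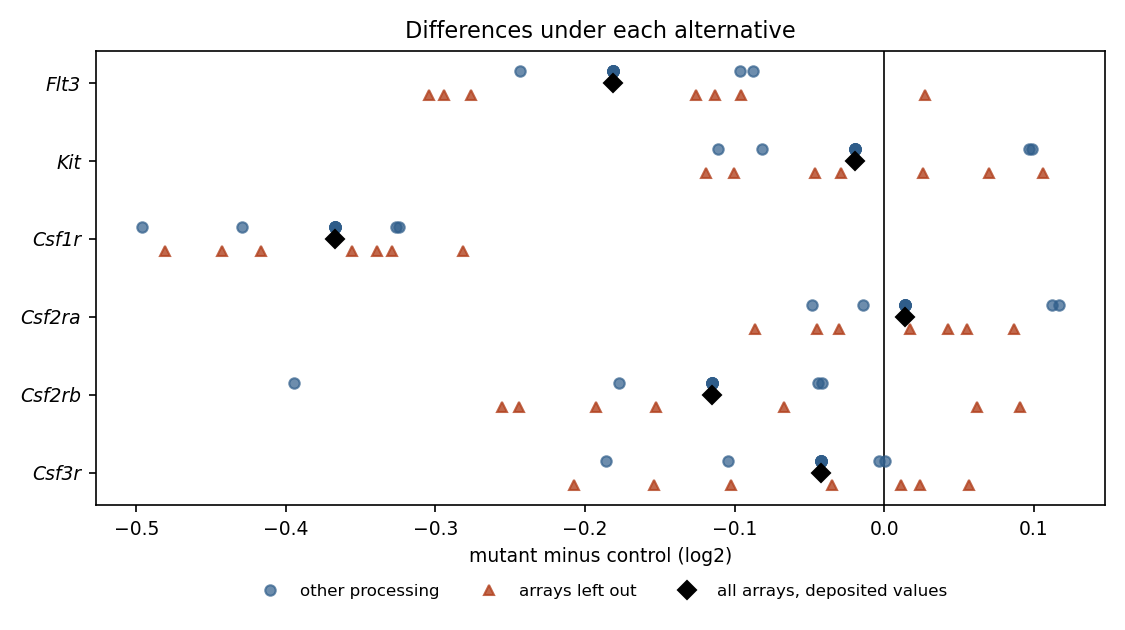
Mutant minus control difference of each receptor gene on the log2 scale (horizontal axis) with all arrays and the deposited values (black diamond), under other processing (blue circles) and with arrays left out (red triangles). Csf1r stays below 0 under every alternative shown, from −0.50 to −0.28, while each of the other receptors has values on both sides of 0.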

How the data were processed

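The authors deposited log2 intensities per probe set, computed by RMA per the submitters' processing notes. The version used and the genome build were not given in the sources used here. RMA corrects background, equalises the arrays' distributions and summarises probes, and leaves no detection call. Per the labels' protocols, RNA was amplified by the NuGEN Ovation process before labelling. Of 41345 probe sets, 23521 had 1 gene symbol in the platform annotation, 1814 several and 16010 none. For a gene with several such probe sets, the one brightest on average over the 6 arrays was kept. Of 22180 genes the dimmest 40%, below 4.84 on average, were left out of testing. Samples were grouped by their titles. The fit of mutant against control used lmFit and eBayes of limma 3.58.1 (R 4.3.3), 2-sided, with Benjamini-Hochberg adjustment over all tested genes and a threshold of 0.05, after the code was tested on simulated data. Lists are described by counts and medians, without a set test, and some list members were not analysed here. The receptor genes, lists and tests were chosen with earlier results of these data known. Genes named from a list had an unadjusted p under 0.05, or otherwise were the 2 with the lowest p. Ligands, Csf2rb2, Il3ra, Il5ra and Il7r were always named. Elane, Ms4a3, Fcer1g and Ly86 were added for their large differences. Likeness passed over predicted genes. Alternatives were other filters on dim genes, the mean of a gene's probe sets, other variance priors, array weights, further normalization, blocks for the replicate number or Y-linked expression, and leaving out arrays. Leaving out both arrays numbered 1 was added after seeing the data. Promoter sequences are RefSeq's (GRCm38.p6), and figures were drawn with matplotlib 3.10.9. Promoters of Csf1r and Csf2rb are not shown.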

Additional observations from a re-analysis of the deposited data

How the results depend on the processing

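Across all alternatives except array weights, 0 of the 6 receptor genes passed the threshold. Array weights, which put 5.20 on mutant replicate 3 and 0.21 on mutant replicate 2, gave 1, Csf1r (−0.50, adjusted p = 0.0108 in limma), among 2960 genes over the whole table. Without array weights the lowest adjusted p of Csf1r was 0.134. Over all tested genes, leaving out 1 array gave 0 to 4 genes past the threshold. On leaving out 1 array the differences ran from −0.48 to −0.28 for Csf1r, −0.30 to 0.027 for Flt3, −0.12 to 0.11 for Kit, −0.086 to 0.086 for Csf2ra, −0.26 to 0.090 for Csf2rb and −0.21 to 0.057 for Csf3r, and the receptor count stayed at 0. The sign also turned for Kit with repeated quantile normalization (0.096), cyclic loess (0.098) and both arrays numbered 1 left out (0.026), for Csf2ra with array weights (−0.015), centring on array medians (−0.048) and both arrays numbered 1 left out (−0.045), and for Csf3r with cyclic loess (0.00047). Of 108 receptor differences under an alternative, 17 took the other sign. Same-numbered mutant and control arrays had deviations from their group means that correlated at 0.13, 0.20 and −0.13 over the tested genes, so the numbers were not taken as pairs. With the replicate number as a block, Csf1r was at −0.37 with adjusted p = 0.597 and 0 genes passed. Each receptor gene had 1 probe set with 1 symbol, so the mean of its probe sets left its difference as it was, and a test of other probe sets on their own was not run. The 3 arrays per group and the missing detection calls limit what small differences or dim genes such as Kitl can show.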
